A study of Mus musculus with 5 samples.

Results

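The class I olfactory receptor cluster of mouse chromosome 7 was examined in sperm DNA, over the 2.60 Mb from 102400000 to 105000000 of the mm10 build. CpGs with at least 5 reads in each of 5 libraries were grouped into 1000-bp tiles with 3 or more such CpGs. This gave 386 measured tiles in the region, of 321659 in the genome. Of these, 85 lay within 1 kb of an olfactory receptor gene and are called receptor tiles here, and the remaining 301 are called other tiles. The members were thus set by position and coverage, not by their methylation level.

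Olfactory receptors are G protein-coupled receptors of the sensory neurons of the nose, and each such neuron transcribes a single allele of a single receptor gene. Class I receptors resemble those of fish and bind many water-soluble odorants, such as carboxylic acids. In the mouse their genes form one cluster, interrupted by the beta-globin genes, while the far more numerous class II genes are spread over many chromosomes. A methyl group on the cytosine of a CpG is copied at cell division, and most of the sperm genome is highly methylated apart from CpG-rich gene starts.

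The libraries were whole-genome bisulfite libraries of sperm that swam out of the cauda epididymis of C57BL/6 mice, with no other genotype or treatment in the labels. Young replicates 1 to 3 came from mice aged 2 months and old replicates 1 and 2 from mice aged 18 months. Bisulfite converts unmethylated cytosine to uracil, so the methylation level is the percent of reads that still show C. The labels do not tie a library to an animal, so SDs and p-values describe the spread between libraries, which may be technical.

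Read sums over listed cytosines were 67774094 to 97769462 per library, with a median of 6 or 7 reads per cytosine. Within the region 2621 of 11231 listed CpGs, 23.3%, had 5 reads in every library, with a median of 11 to 16 reads. Marker promoters, 1000 bp either side of the start, could check the sperm label only in part. They were read over every CpG a library lists, and for a gene with several starts the start with the lowest mean was kept. Of 7 maternally imprinted genes, which are unmethylated in sperm at their control regions, 4 were measured. They had a mean of 33.8% to 41.3% in the 5 libraries, from 17.2% at Nnat to 76.7% at Snrpn. Of 7 germline genes listed as unmethylated in germ cells, 2 were measured, Sycp3 at 42.4% and Ddx4 at 83.7%. Of 4 housekeeping genes 2 were measured, Tbp at 7.8% and Rplp0 at 22.8%. None of 5 epididymal genes and 1 of 3 leukocyte genes, Ptprc at 85.1%, were measured, so the share of other cells was not tested. Young replicate 3 stood apart, with a mean of 89.0% over all tiles against 89.8% to 90.1% in the other 4 libraries. Between any 2 libraries the tiles of the region differed by 3.95 to 4.79 points on average, so no library was a copy of another.

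The measured tiles were a small and uneven sample of the cluster. Of 620 tiles of the region within 1 kb of a receptor gene, 370 held no common CpG, 165 held 1 or 2, and 85 could be measured, or 13.7%. For other tiles the share was 15.2%, or 301 of 1980. Of 138 annotated receptor genes, 110 of them protein coding and 28 pseudogenes, 64 had a measured region and 74 did not. In 48 of the 85 receptor tiles there were exactly 3 CpGs, and median reads per tile were 48 to 77, depending on the library.

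Few CpGs are present around the annotated starts of the receptor genes. Whether transcription begins at these starts was not tested, so the windows called promoters here may lie away from it. In windows from 250 bases before to 50 bases after the RefSeq gene start (GRCm38), 95 receptor promoters of the cluster held a median of 1 CpG, with a range of 0 to 4, and 31 of them, 32.6%, held none. Over all 32851 mouse promoters of the same length the median was 7, and 5.43% held none. The 853 receptor promoters elsewhere also had a median of 1 and 33.4% with none. The 250 bases before the start are shown for Olfr599 and Olfr601, the receptor genes with the lowest measured promoter methylation over the common CpGs. They are also shown for Olfr642 as one of the most methylated, and for Rrm1, a neighbour at the edge of the cluster with an unmethylated start. Each is written 5′ to 3′ along the strand of its gene, with every CpG in capitals. They lie at chr7:103337762-103338011 (plus strand), chr7:103359214-103359463 (minus), chr7:104050353-104050602 (minus) and chr7:102441445-102441694 (plus).

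Olfr599: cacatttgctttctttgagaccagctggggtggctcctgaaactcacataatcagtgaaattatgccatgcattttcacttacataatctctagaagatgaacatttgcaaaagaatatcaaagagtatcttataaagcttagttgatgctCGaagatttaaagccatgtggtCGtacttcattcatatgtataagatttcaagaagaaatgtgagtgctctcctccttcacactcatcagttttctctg
Olfr601: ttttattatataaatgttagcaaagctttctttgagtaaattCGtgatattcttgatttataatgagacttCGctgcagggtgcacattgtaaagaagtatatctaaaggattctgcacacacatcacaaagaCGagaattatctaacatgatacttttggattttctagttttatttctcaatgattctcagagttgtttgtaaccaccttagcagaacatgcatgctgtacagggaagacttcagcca
Olfr642: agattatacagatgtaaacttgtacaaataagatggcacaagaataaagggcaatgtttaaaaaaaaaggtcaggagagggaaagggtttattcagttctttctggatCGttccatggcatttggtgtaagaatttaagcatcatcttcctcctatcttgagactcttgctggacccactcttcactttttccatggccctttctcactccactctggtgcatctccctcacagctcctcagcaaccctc
Rrm1: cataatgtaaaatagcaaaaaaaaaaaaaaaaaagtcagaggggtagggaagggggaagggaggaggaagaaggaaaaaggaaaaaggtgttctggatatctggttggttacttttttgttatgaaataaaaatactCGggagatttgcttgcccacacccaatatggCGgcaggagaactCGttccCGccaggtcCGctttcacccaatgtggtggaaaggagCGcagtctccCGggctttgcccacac

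These stretches hold 2 CpGs at Olfr599, 3 at Olfr601, 1 at Olfr642 and 7 at Rrm1. In the Olfr601 stretch all 3 were measured, at 207, 178 and 116 bases before the start, with means over the 5 libraries of 27.8%, 48.5% and 47.8%. The only CpG of the Olfr642 stretch, 141 bases before the start, was at 94.6%. At Rrm1, which encodes the large subunit of ribonucleotide reductase, 4 of the 5 measured CpGs had no methylated read in any library, and the fifth had a level of 20% in old replicate 2, on 5 reads, and 0% elsewhere. Neither CpG of the Olfr599 stretch was listed in every library, so they have no value. The motif CCCNNGGG, the core bound by EBF factors of olfactory neurons, was present in 3.16% of the receptor windows and in 13.7% of all promoters. TAATTA, a core bound by homeodomain proteins such as Lhx2, was in 13.7% and 5.29%. In the 853 receptor promoters elsewhere CCCNNGGG was in 3.05% and TAATTA in 19.1%, so neither contrast with all promoters was particular to this cluster. Both motifs read the same on either strand and do not overlap each other, and neither was in the 4 genes' windows.

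Receptor tiles were highly methylated in sperm of both ages. Young replicates 1, 2 and 3 had means of 89.9%, 90.1% and 88.4%, and old replicates 1 and 2 had 89.2% and 89.3%. Young replicate 3 was the lowest library, and both old libraries lay between it and the other young ones. Young libraries averaged 89.5% ± 0.940 (SD, n = 3) and old libraries 89.2% ± 0.113 (SD, n = 2), and the difference of -0.232 points was smaller than the spread between young libraries. Without the tiles of Olfr599 the difference was 0.243 points, so its sign rested on a single gene. Without young replicate 2 it was 0.106, and without young replicate 3 it was -0.769. Its size against the spread depended on the set of tiles. Over the 41 tiles overlapping a receptor gene it was -0.554 points (young SD 0.208), and 0.441 without Olfr599. With every CpG that a library lists (120 receptor tiles) it was -0.738 points (young SD 0.459). With Olfr599 included, each old library was below each young one in both of these sets.

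Receptor tiles were slightly less methylated than other tiles of the region in each library. Other tiles had means of 91.4%, 91.2% and 90% in the young and 91.0% and 91.2% in the old libraries. The difference of receptor minus other tiles was -1.60 ± 0.338 points (SD, n = 5) and negative in 5 of 5 libraries, from -1.06 to -1.89. It was -0.519 without the tiles of Olfr599, so most of the difference in means came from that gene. The median tile was at 92.2% for receptor tiles and 94.0% for other tiles.

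The mean of class I tiles was above that of the most similar set, the 204 tiles near the 293 class II genes of the large run on chromosome 2 (85330967 to 90401674). That set was at 88.1%, 88.2% and 88.3% in the young and 88.2% and 87.2% in the old libraries. Class I exceeded it by 1.38 ± 0.833 points (SD, n = 5), in 5 of 5 libraries, but by only 0.117 in young replicate 3. The median tile levels were nearly the same, at 92.2% for class I and 92.1% for class II, and in young replicate 3 the class I median of 90.3% was below the class II median of 91.1%. Against all 719 receptor tiles outside the region the difference was 2.91 ± 0.923 points. These differences were described within libraries and not tested.

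**Figure D1:**
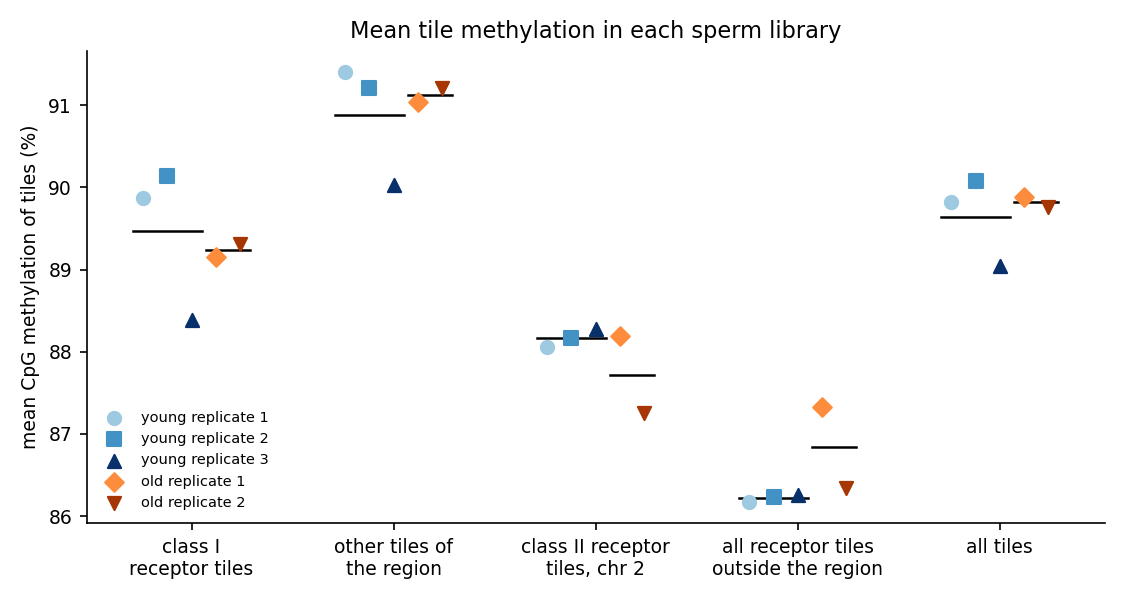
Mean methylation (%) of 5 sets of 1000-bp tiles, with 1 point per library and a line at each age's mean; the vertical axis does not start at 0. Class I receptor tiles lay between 88.4% and 90.1%, below the other tiles of their region in every library, and young replicate 3 was the lowest library in both sets.

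Most receptor tiles sat near the top of the scale. A level of at least 90% was found in 55 of 85, while 8 (9.41%) were under 80% and 2 (2.35%) under 50%. The corresponding shares over all tiles of the genome were 11.9% and 3.11%, so low tiles were not more frequent here than in the whole genome. In the other tiles of the region the shares were 7.97% and 1.33%, both lower. In the class II tiles of chromosome 2 they were 17.2% and 0.980%. Tiles overlapping a receptor gene (41) had a mean of 86.2%, and those within 1 kb that did not overlap one (44) had 92.3%. At 1 to 2 kb, just outside the distance that defines receptor tiles, 35 tiles had 92.6%, and tiles further off had 90.6% to 90.8%. Without Olfr599 the overlapping tiles had a mean of 88.4%, and without Olfr599 and Olfr601 89.6%. Just outside the CpG minimum, tiles near receptor genes with 2 CpGs had 92.2% (69 tiles), and those with exactly 3 had 90%.

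By distance from the annotated gene start, CpGs near receptor genes showed no low zone at that start. They had a mean of 90.3% in the 500 bases before the start (39 CpGs) and 92.6% in the 500 bases after it (15 CpGs). From 500 to 1000 bases after the start the mean was 79.8% (43 CpGs), and without the 9 CpGs of Olfr599 it was 91.5% (34 CpGs). None of 448 CpGs inside or within 1 kb of a receptor gene was at 20% or less, and 54 were between 20% and 80%. On the centromeric side of the globin genes 59 receptor tiles had a mean of 89.0%, and on the other side 26 had 90.1%.

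**Figure D2:**
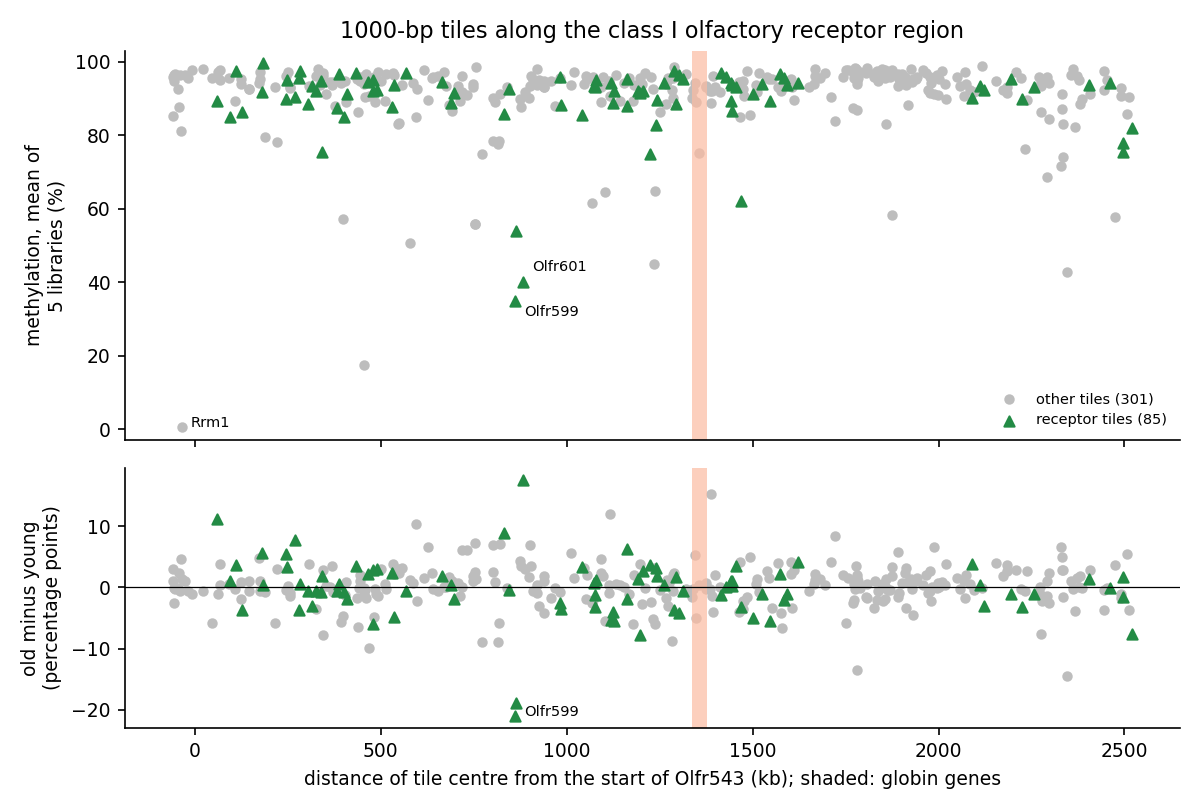
Each point is a 1000-bp tile, placed by its distance in kb from the start of Olfr543; the upper panel gives the mean methylation of the 5 libraries (%) and the lower the difference of old minus young (percentage points), with the globin genes shaded. Receptor tiles form a band near 90% with 2 tiles under 50%, and the lowest differences, -21.0 and -18.9 points, are adjacent tiles of Olfr599.

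The study's question was which places differ in methylation between sperm of the 2 ages, and no receptor tile passed the test. A call needed an adjusted p under 0.05 in a quasi-binomial model of the reads, with limma-type moderation of the spread, and a difference of at least 10 points. Old libraries had the higher mean in 43 receptor tiles (50.6%, background 52.5%) and the lower in 42, and the median difference was 0.0798 points, against 0.150 over all tiles. Of 321659 tiles this test called 0 (percent called 0), and 10362 reached an unadjusted p under 0.05. On log2 odds, limma-type moderation also called 0, and 13796 (4.29%) reached that p. In the first model 3 receptor tiles, 3.53%, had an unadjusted p under 0.05, close to the 3.22% of all tiles. The libraries of the ages did not overlap in 6 receptor tiles higher in old sperm (7.06%, background 8.82%) and in 7 lower ones (8.24%, background 8.14%). A difference of at least 10 points was seen in 4 (4.71%, background 2.54%), of which 2 were the tiles of Olfr599.

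Among the measured receptor gene regions, Olfr599 (gene ID 258726, chromosome 7, 103338012 to 103339061, plus strand) was the least methylated and had the largest difference between ages. Its first tile (103338001 to 103339000, 8 CpGs, 48 to 135 reads per library) had levels of 23.9%, 43.8% and 62.2% in the young libraries, in the order of their numbers, and of 23.6% and 21.1% in the old ones. The young libraries were spread widely, and the lowest of them, young replicate 1, was within a point of old replicate 1. Its 95% Wilson interval was 15.5% to 35% and that of old replicate 1 was 16.5% to 32.5%. Young replicate 3 was far above both, with an interval of 53.8% to 70%. These intervals cover counting error only, and are too narrow for it, because CpGs of the same read were counted separately. The group values were 43.3% ± 19.1 (SD, n = 3) and 22.3% ± 1.79 (SD, n = 2), a difference of -21.0 points (unadjusted p = 0.0169, adjusted p = 1, quasi-binomial model with limma-type moderation). Without young replicate 3 the difference was -11.5 points, and without young replicate 1 it was -30.7.

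The next tile of Olfr599 (103339001 to 103340000, 5 CpGs, 47 to 84 reads) was at 63.0%, 56.2% and 65.5% in the young and 49.2% and 36.2% in the old libraries. Here the ages did not overlap and the young libraries lay close together. The difference was -18.9 points, with young at 61.6% ± 4.77 (SD, n = 3) and old at 42.7% ± 9.18 (SD, n = 2) (unadjusted p = 0.0161, adjusted p = 1 in the same model). It was -12.4 points without old replicate 2. The whole gene region, the gene with 1000 bp either side (14 CpGs), was at 45.2%, 56.0% and 64.9% in the young and 37.0% and 31.8% in the old libraries. Its difference of -20.9 points had an unadjusted p of 0.00831 and an adjusted p of 1, and leaving out each library in turn gave -16.1 to -26.0 points. A binomial model without a term for spread between libraries gave this region an adjusted p of 9.26e-08, against 0.818 to 1 in its other alternatives.

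Single CpGs of Olfr599 showed the same spread between young libraries. In the 8 CpGs from 103338638 to 103338867, levels ranged from 11.1% to 40% in young replicate 1, from 28.6% to 66.7% in young replicate 2 and from 50% to 76.5% in young replicate 3. They ranged from 14.3% to 38.5% in old replicate 1 and from 15.4% to 27.3% in old replicate 2. CpGs this close share reads and are not independent of each other. At 103339008 the young libraries were at 57.1%, 50% and 69.2% and the old at 20% and 0%, and at 103339069 they were at 60%, 40% and 68.4% against 18.2% and 8.33%. By 103339948 the mean over the libraries was back at 97.1%.

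**Figure D3:**
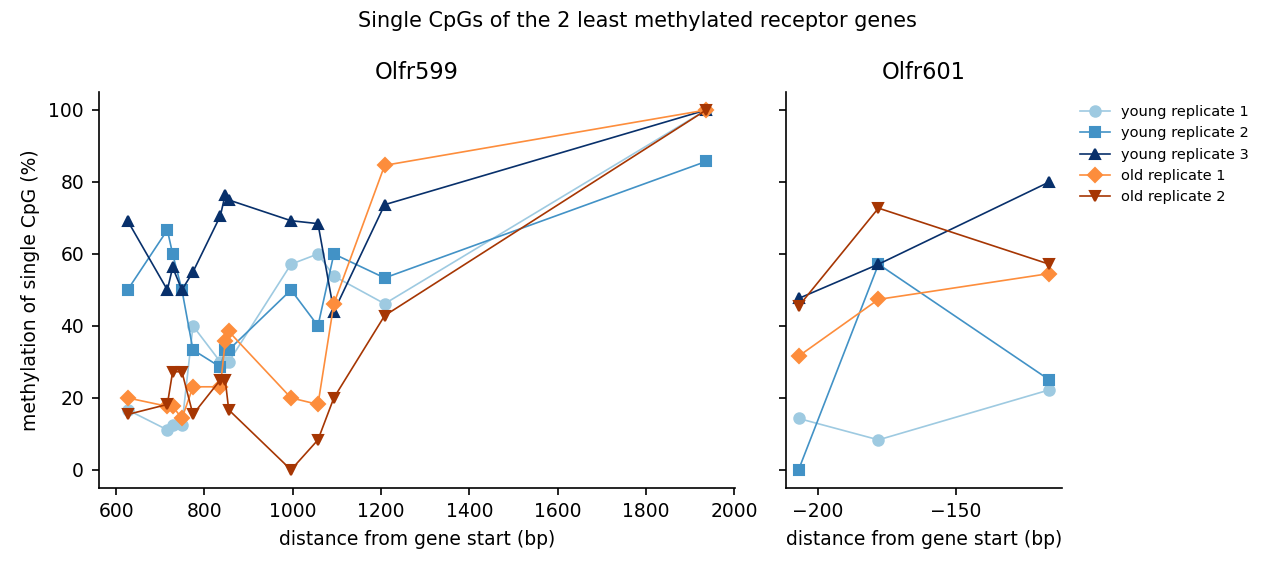
Methylation (%) of each common CpG in the measured tiles of Olfr599 and Olfr601, by distance in bp from the gene start, with 1 line per library. At Olfr599 young replicate 3 lies between 50% and 76.5% in the first 8 CpGs while both old libraries stay at or under 38.5%, and at Olfr601 the lowest 2 libraries at the CpG nearest the start are young.

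Olfr601 (gene ID 258311, 103358224 to 103359213, minus strand) was the next least methylated of the measured receptor gene regions, and with the common CpGs its mean was higher in old sperm. The tile at its start (103359001 to 103360000, 3 CpGs, 20 to 49 reads) was at 14.3%, 30% and 55.3% in the young and 42.9% and 58.6% in the old libraries. Young replicate 3 lay among the old libraries, so the ages overlapped. The difference of 17.5 points was smaller than the young SD of 20.7 and did not pass (adjusted p = 1, quasi-binomial model with limma-type moderation). Its gene region was at 45.3%, 56.1% and 60.5% in the young and 58.8% and 70.2% in the old libraries. The difference of 10.5 points there was 4.86 without old replicate 2. With every CpG that a library lists, the order of the ages turned in its promoter window, at 40.8%, 41.3% and 70.9% in the young and 46.1% and 43.1% in the old libraries, and the tile at 103358001 was at 47.1%, 43.5% and 84.6%, and at 26.7% and 42.4%.

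Other receptor genes with low levels varied less. Olfr633 had 171 to 215 reads on 6 CpGs, against 41 to 85 reads on 6 CpGs at Olfr601. Whether read depth accounts for the smaller spread was not tested. The gene region of Olfr633 was at 73.7%, 65.1% and 66.5% in the young and 70.7% and 58.8% in the old libraries. Olfr671 was at 75.7%, 78.4% and 74.7%, and at 76.1% and 74.5%, on 416 to 518 reads. The pseudogene Olfr260-ps1 was at 79.5%, 80% and 75.6%, and at 85.6% and 77.6%. In each of these 3 genes the libraries of the 2 ages overlapped. At the other end of the scale Olfr555 was at 100% in 4 libraries and 98.6% in young replicate 3, Olfr551 had a mean of 98.1% and Olfr559 one of 97.1%.

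Across the 64 measured receptor gene regions young libraries averaged 90.3% ± 1.19 (SD, n = 3) and old libraries 90.5% ± 0.290 (SD, n = 2). Old sperm had the higher mean in 36 (56.2%, background 53.2%) and the lower in 28. Levels of 90% or more were found in 46 genes, and 5 (7.81%, background 17.5%) were under 80%. The test called 0 of 29108 gene regions in the genome (percent called 0), and 545 (1.87%) reached an unadjusted p under 0.05; with limma-type moderation on log2 odds the counts were 0 and 1044 (3.59%). Olfr599 was the single receptor gene with an unadjusted p under 0.05 in the first model. The ages did not overlap in 3 receptor genes higher in old sperm (4.69%, background 7.83%) and 3 lower ones (4.69%, background 6.78%). The 54 protein-coding receptors had a young mean of 90.3% and an old mean of 90.5%, and the 10 pseudogenes had 90% and 90.6%.

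Among genes with a higher mean in old sperm, the smallest p-values were those of Olfr547, Olfr551, Olfr606, Olfr646 and Olfr601, none of which passed. Olfr547 was at 84.2%, 92.5% and 78.1% in the young and 92.1% and 100% in the old libraries, on 32 to 40 reads. Olfr606 was at 78.3%, 74.2% and 82.1% in the young and 85.7% and 94.7% in the old libraries, on 19 to 39 reads, and did not overlap between ages. Olfr551 was at 98.0%, 98.5% and 93.9% in the young and 100% in both old libraries. Olfr646 was at 92.6% ± 4.29 (SD, n = 3) and 96.2% ± 1.47 (SD, n = 2). The differences of these 5 genes were 12.1 points at most.

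Among those with a lower mean in old sperm, Olfr599 was followed by Olfr580-ps1, Olfr672, Olfr618 and Olfr628. Olfr672 was at 93.3%, 82.8% and 79.3% in the young and 78.1% and 76.9% in the old libraries, on 29 to 39 reads. Its ages did not overlap, and young replicate 1 stood well above the others. Olfr618 was at 98.2%, 96.2% and 91.1%, and at 88.9% and 92.2%. Olfr628 was at 90.3% ± 1.72 (SD, n = 3) and 87.7% ± 1.31 (SD, n = 2). Olfr580-ps1 was at 95.4%, 95.6% and 97.2%, and at 96.6% and 91.2%, and its difference of -2.17 points was 0.520 without old replicate 2. Its tile (103013001 to 103014000, 15 CpGs) was at 97.0%, 93.0% and 97.1%, and at 94.9% and 86.8%.

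**Figure D4:**
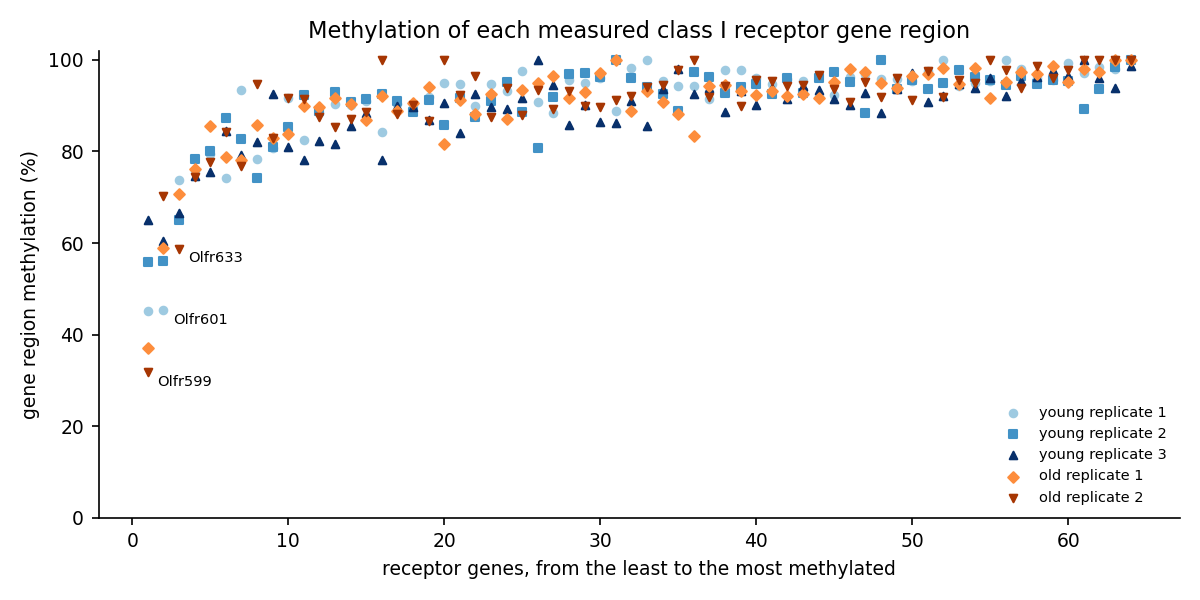
Methylation (%) of the 64 measured receptor gene regions, ordered from the least to the most methylated, with 1 point per library. Olfr599, Olfr601 and Olfr633 stand below the rest, and 46 of the 64 genes have a mean of 90% or more.

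Receptor tiles higher in old sperm with the smallest p included a pair that lay outside the gene bodies. The tile 741 bp from Olfr551 (102586001 to 102587000) was at 97.7%, 96.3% and 93.8% in the young and 100% and 99.1% in the old libraries (unadjusted p = 0.0217, adjusted p = 1, quasi-binomial model with limma-type moderation). That beside Olfr559 (102725001 to 102726000) was at 93.6%, 93.2% and 94.6%, and at 96.5% and 97.8%. Both did not overlap between ages, and both differed by under 4 points.

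Receptor promoters, here 1000 bp either side of the annotated gene start, had a level close to that of the receptor tiles. These windows share CpGs with the gene regions and the receptor tiles, so this is not a separate result. Of 95 starts 25 were measured, and they averaged 89.3% ± 1.25 (SD, n = 3) in the young and 89.0% ± 0.741 (SD, n = 2) in the old libraries. Over all 4974 measured promoters the level was 61.6% at both ages, and 36.5% of promoters were under 50%, against 1 receptor promoter. That one was Olfr599, at 35.2%, 55.2% and 65% in the young and 29.9% and 28.2% in the old libraries. Olfr601 followed at 33.3%, 48.4% and 59.0%, and at 54.2% and 66.0%. The next lowest, Olfr568, Olfr628 and Olfr566, had means of 86.3%, 86.5% and 87.4%, and the highest, Olfr559, Olfr571 and Olfr642, had 97.1%, 96.9% and 96.5%. The test called 0 of the 4974 promoters (percent called 0), and 111 (2.23%) reached an unadjusted p under 0.05; with limma-type moderation on log2 odds the counts were 0 and 179 (3.60%).

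Globin and Trim genes among the receptors, and Stim1 beside them, were also highly methylated and none passed. The 3 measured of 6 globin genes, which encode subunits of haemoglobin, had means of 86.8% (Hbb-bt), 94.7% (the pseudogene Hbb-bh3) and 93.9% (Hbb-y). Hbb-bt, expressed in adult red cells, was at 87.3%, 95.8% and 77.1% in the young and 89.5% and 84.4% in the old libraries. All 10 measured Trim genes, several of them antiviral factors, lay between 92.9% and 96.8%, with 5 higher and 5 lower in old sperm. Stim1, a calcium sensor of the endoplasmic reticulum that borders the cluster, was at 95.4% ± 1.51 (SD, n = 3) and 95% ± 0.0320 (SD, n = 2), on 187 CpGs.

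The 2 least methylated tiles of the region were not receptor tiles. The tile at the start of Rrm1 (102441001 to 102442000, 5 CpGs) had 5 to 11 reads at each CpG in each library. Summed over the CpGs, none of 31, 33 and 49 reads of the young libraries and 35 of old replicate 1 was methylated. Taken as separate reads, these sums allow up to 9.68%, 9.09%, 6.12% and 8.57%. CpGs this close share reads, so the true limits are higher. Old replicate 2 was at 2.86%. A tile 2415 bp from Olfr572 (102931001 to 102932000) had a mean of 17.5%, carried by the CpG at 102931009 with 0 methylated of 442 reads, while its other 2 CpGs were at 86.6% and 100%. Whether that position is a CpG in these mice was not tested. A tile of 12 CpGs 5596 bp from Olfr243 (103710001 to 103711000) was at 43.5%, 37.1% and 50.7% in the young and 46.3% and 47.5% in the old libraries, on 391 to 605 reads. A tile 3742 bp from Olfr583 (103056001 to 103057000) was at 52.1%, 43.9% and 54.6%, and at 49.9% and 52.9%, on 274 to 355 reads. The read depth of these last tiles exceeded the region's median of 56 to 82.5 reads per tile, and whether reads from other copies add to them was not tested.

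Other tiles with the smallest p-values were likewise not called. Higher in old sperm were 103593001 to 103594000 (86.0% in young, 98.0% in old), 103009001 to 103010000 (95.5% and 99.3%) and 103279001 to 103280000 (87.4% and 94.4%). Lower were 102822001 to 102823000 (100% and 92.2%), a tile of Trim6 at 104227001 to 104228000 (100% and 94.2%) and 102945001 to 102946000 (94.7% and 84.8%). Each rested on 3 to 5 CpGs.

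Genes that act with the receptors were measured for comparison. Of 17 genes of olfactory signalling and receptor choice, 12 had a measured region and none passed in either direction. The largest differences were at Rtp2, a receptor transport protein, where young libraries averaged 95.3% ± 5.76 and old ones 89.9% ± 6.42, at Cngb1, a subunit of the cyclic nucleotide-gated channel, with 75.1% ± 2.25 and 71.5% ± 0.679, and at Lhx2, a homeodomain factor of receptor choice, with 71.4% ± 4.16 and 69.4% ± 2.98 (SD, n = 3 and n = 2). In Cngb1 each young library, at 72.8% or more, was above both old ones, at 71.0% and 72.0%. Ldb1 had the same order, with a difference of -0.747 points. In the other measured genes of this list the ages overlapped. Over all gene regions 6.78% were lower in old sperm without overlap.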

How the data were processed

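Whole-genome bisulfite sequencing of 5 mouse sperm libraries was used. The submitters' processing notes list methylKit 1.4.0, Bismark 0.16.3 and Trim Galore 0.4.3, with the mm10 (GRCm38) build; no settings are in the sources used. Per the file headers, the deposited tables give each cytosine's coverage (a read count) and the percent of its reads showing C or T; they list cytosines with at least 5 reads. Percent times coverage gave whole reads.

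Strands were summed, and CpGs that reached 5 reads in every library were placed in 1000-bp tiles (3 or more CpGs), in gene regions (1000 bp either side) and in promoters (1000 bp either side of the start). Genes, starts and promoter sequences came from RefSeq tables (GRCm38) without exons or repeats. Methylated and unmethylated reads were compared with a quasi-binomial model across the genome, with dispersion moderated as in limma and kept at 1 or more, and Benjamini-Hochberg adjustment; the alternative, limma-type moderation on log2((methylated + 1)/(unmethylated + 1)), was also computed in Python 3.11.15 with scipy 1.17.1, pandas 2.3.3, numpy 2.4.6 and matplotlib 3.10.9. Tests were tried on simulated data. Bisulfite reads do not separate a C-to-T variant or incomplete conversion from methylation state. Reads are not independent molecules, and the reads of a tile were summed over its CpGs, which can share a read. Intervals and limits for 0 counts (3 reads of the total) thus cover counting error only, and are too narrow for it.

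Named tiles and genes were those with the lowest or highest levels and, by age and direction, the smallest p, with the globin and Trim neighbours; a further group of neighbours is not reported here. Members and lists were chosen with earlier results of these data known. Alternatives covered the model, coverage, tile definition, distance to a receptor gene and each library left out; every listed CpG, the tiles without Olfr599 and the median over tiles were added after seeing the data.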

Additional observations from a re-analysis of the deposited data

How the results depend on the processing

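The calls for tiles, gene regions and promoters stayed at 0 with limma-type moderation, with either coverage limit, and with each library left out in turn (range 0 to 0), and calls for tiles also did so with 500-bp tiles and with 5 or more CpGs. The binomial model, which has no term for spread between libraries, called 714 tiles (318 higher and 396 lower in old sperm), 100 gene regions and 48 promoters. The difference of receptor minus other tiles was negative in each alternative: -2.03 points with all reads pooled, -4.91 for tiles overlapping a receptor gene, -0.395 within 5 kb, -0.519 without Olfr599, -3.08 in 500-bp tiles, -3.04 with 5 or more CpGs and -2.25 with every listed CpG. Leaving out each library in turn gave -1.74 to -1.53. The difference from class II tiles was 2.39 points with at least 10 reads per CpG, and lay between 1.21 and 1.70 with 1 library left out. Old minus young lay between -0.769 and 0.106 points in receptor tiles and between -0.183 and 0.504 in other tiles with 1 library left out. Olfr580-ps1 changed sign with at least 10 reads per CpG, to 0.0695 points in its tile and 1.53 in its gene region, and, with a gene-region range of -4.86 to 0.520 over the libraries left out, to 0.520 without old replicate 2; the cause was not tested. Rrm1's gene region was at 96.0% with at least 10 reads, where the CpGs of its start drop out. Whether the labels' replicate numbers pair the libraries could not be told. Deviations of same-numbered libraries had correlations of 0.00937 and -0.0198. With 2 old libraries their deviations mirror each other, and they carry counting error, so these values cannot decide it. With the replicate number as a block, the count of calls was again 0 for tiles, gene regions and promoters (600, 740 and 44 at an unadjusted p under 0.05), and Olfr599 had an unadjusted p of 0.0681. In this model young replicate 3, which has no old library of its number, adds nothing to the age comparison. The model thus has little power, and its 0 calls add little. Precision in single tiles is limited by the reads, a median of 48 to 77 per library in receptor tiles, and by the group sizes of 3 and 2 libraries.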

Other observations

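With every CpG that a library lists, a set that differs between libraries and was used after seeing the data, further receptor genes had low levels. The tile at the start of Olfr606 (103451001) had levels of 44.3%, 33.3% and 43.2% in the young libraries and of 20.8% and 14.3% in the old ones, so the ages did not overlap. With the common CpGs the gene region of Olfr606 had the opposite order and a mean of 83.0%, and this tile was not measured. Its promoter window was at 49.3%, 48.0% and 51.0% in the young and 44.0% and 40.9% in the old libraries. That of Olfr66 was at 55.6%, 43.1% and 66.3%, and at 59.7% and 54.2%. A tile beside the pseudogene Olfr637-ps1 (103996001) was at 78.3%, 41.2% and 75%, and at 25% and 55.3%, so the ages overlapped. These genes were named after their values were seen, and no test was made on this set.

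The Usp17 family of deubiquitinase genes has 6 members in the region, all measured, and none passed. Their means lay between 82.8% (Usp17ld) and 93.7% (Usp17lc), with 4 higher and 2 lower in old sperm. Usp17lb was at 83.7%, 85.7% and 86.9% in the young and 81.0% and 79.5% in the old libraries, with no overlap. These copies are similar to each other, and whether reads were shared between them was not tested. Gm4887 had the lowest gene region outside the receptors, at 40%, 38.7% and 59.0% in the young and 62.3% and 40.7% in the old libraries. Its tile 104821001 was at 40%, 27.6% and 78.6%, and at 51.9% and 16.7%, on 27 to 40 reads.

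Olfr78, a class I receptor proposed as a lactate sensor of the carotid body, was chosen here for that proposed role and not for its values. Its gene region, with 21 CpGs, was at 95.5%, 92.8% and 94.3% in the young and 92.6% and 94.6% in the old libraries, and the ages overlapped.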
